A study of Arabidopsis thaliana with 12 samples.

Results

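The 51 late embryogenesis abundant (LEA) genes of Arabidopsis thaliana were followed through seedlings of 2 genotypes with and without abscisic acid (ABA). They were selected by locus from a list of LEA protein genes that leaves out COR15A and COR15B, and each has a row of its own among the 33201 rows of every deposited table. Of these genes, 49 fall into 9 subfamilies, the dehydrins, LEA_1 to LEA_5, SMP, PvLEA18 and AtM, and 2 are unclassified. The study sequenced RNA of whole seedlings aged 5 days in 4 groups of 3 samples. Wild-type Col-0 and the mutant nup1-1 were each grown on MS medium, untreated, or on MS medium that contained ABA, at a concentration the labels do not state. NUP1 is a nuclear pore protein, and the series title links it to proteasomal turnover of ABI5, a bZIP factor that activates LEA genes in seeds. The labels do not describe the lesion of nup1-1, and they do not tell separate sowings or plates of seedlings from repeat samples, so the spread behind the p-values may be technical.

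LEA proteins are small, very hydrophilic proteins that build up in seeds as they dry and in vegetative tissue under water deficit or cold, where many act as protectants of membranes and enzymes. Transcription of most seed LEA genes is driven by ABA through the factor ABI3 and through ABI5, which binds ABA-responsive elements (ABREs) in the promoter. After germination the seed-type members are silenced, and exogenous ABA given at that stage can hold the embryonic programme active.

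The promoters below are shown because they place LEA genes with large ABA responses beside members with a smaller rise, no call or a fall. Each is the 250 bases before the transcript start in the RefSeq annotation of TAIR10.1, read 5′ to 3′ on the strand of the gene, with no annotated exon base in it. Capitals mark the ABRE core ACGTG on either strand, so that its reverse complement CACGT is capitalised too and a palindromic CACGTG carries both. These examples leave out members that break the contrast they show. LEA14 and AT4G38410 rose less than 8-fold and hold 2 separate cores each. ECP31 and M17 were at least 8-fold higher on ABA in both genotypes and hold none. EM6 lies at chr2:16780369-16780618 and LEA18 at chr2:14863413-14863662, both on the minus strand of chromosome 2. AT2G42560 lies at chr2:17716913-17717162 on the minus strand, and AT3G02480 at chr3:511970-512219 on the plus strand. AT2G23120 lies at chr2:9841592-9841841 on the plus strand of chromosome 2. ERD10 lies at chr1:7089607-7089856 and LEA3 at chr1:624568-624817, both on the minus strand of chromosome 1.
EM6: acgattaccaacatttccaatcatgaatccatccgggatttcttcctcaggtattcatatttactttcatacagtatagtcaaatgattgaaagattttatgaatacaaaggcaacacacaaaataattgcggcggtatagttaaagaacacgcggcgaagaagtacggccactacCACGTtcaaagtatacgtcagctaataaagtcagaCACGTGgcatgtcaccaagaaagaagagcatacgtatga
LEA18: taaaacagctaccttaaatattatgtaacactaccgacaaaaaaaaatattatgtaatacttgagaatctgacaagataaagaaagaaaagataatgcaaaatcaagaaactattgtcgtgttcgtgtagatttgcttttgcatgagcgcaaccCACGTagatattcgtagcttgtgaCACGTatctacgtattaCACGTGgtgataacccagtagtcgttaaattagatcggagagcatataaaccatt
AT2G42560: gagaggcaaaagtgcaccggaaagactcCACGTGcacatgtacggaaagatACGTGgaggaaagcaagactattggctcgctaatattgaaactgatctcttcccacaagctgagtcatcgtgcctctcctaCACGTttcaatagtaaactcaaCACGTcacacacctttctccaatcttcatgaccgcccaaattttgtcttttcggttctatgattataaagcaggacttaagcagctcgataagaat
AT3G02480: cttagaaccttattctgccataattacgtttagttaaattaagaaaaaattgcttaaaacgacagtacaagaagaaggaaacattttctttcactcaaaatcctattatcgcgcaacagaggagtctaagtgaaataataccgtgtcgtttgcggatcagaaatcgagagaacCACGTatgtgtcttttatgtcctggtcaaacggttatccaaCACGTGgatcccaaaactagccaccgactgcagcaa
AT2G23120: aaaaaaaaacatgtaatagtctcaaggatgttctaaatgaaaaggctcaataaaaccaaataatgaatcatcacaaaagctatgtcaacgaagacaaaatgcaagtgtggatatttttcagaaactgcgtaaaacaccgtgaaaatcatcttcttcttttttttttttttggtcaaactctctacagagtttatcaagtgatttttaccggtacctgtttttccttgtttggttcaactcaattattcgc
ERD10: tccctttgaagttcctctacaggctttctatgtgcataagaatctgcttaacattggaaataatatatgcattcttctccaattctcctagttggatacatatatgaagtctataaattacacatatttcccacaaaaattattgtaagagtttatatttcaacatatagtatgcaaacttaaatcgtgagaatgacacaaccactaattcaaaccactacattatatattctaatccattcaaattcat
LEA3: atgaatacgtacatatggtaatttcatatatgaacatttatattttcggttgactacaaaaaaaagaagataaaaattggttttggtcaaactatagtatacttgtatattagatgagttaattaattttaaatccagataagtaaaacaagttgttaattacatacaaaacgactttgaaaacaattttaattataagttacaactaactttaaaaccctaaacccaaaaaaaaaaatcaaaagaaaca

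The ABRE core was present in 36 of the 51 LEA promoters (70.6%), against 6253 of 26158 promoters of the same length in the genome (23.9%). Of the 29 members whose FPKM was at least 8-fold higher on ABA in both genotypes, 27 held it (93.1%). AT5G53270, a seed maturation protein gene listed at 0 in untreated nup1-1, counts among those 29, and both the 8-fold limit and this division were set with the values known. The 2 without it were ECP31 and M17. Of the 14 other members that reached 1 FPKM, 6 held it (42.9%), as did 3 of the 8 that stayed under 1 FPKM (37.5%). At least 2 separate ABRE cores, counting a palindrome once, were found in 23 of 51 LEA promoters (45.1%) and in 5.36% of all promoters. By subfamily, all 3 LEA_1 and both LEA_5 promoters and 13 of 16 LEA_4 promoters had at least 2, against 2 of 10 dehydrin and none of 4 LEA_3 promoters. The AT3G53040 promoter held the most, with 5. The RY element CATGCA, the site of B3 factors such as ABI3 and FUS3, was present in 9 members (17.6%) and in 8.38% of all promoters. The core CCGAC of the dehydration-responsive element, bound by CBF and DREB2 factors, was present in 19 members (37.3%) and in 12.4% of all promoters. Both were searched on both strands, and matches of different motifs may share end bases. These matches are descriptions of the letters in the windows and not evidence of binding.

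The values are the authors' FPKM for each group, fragments normalised for transcript length and library size, so levels are per length and can be set beside each other within a table. A member was called at q under 0.05 in the authors' deposited table of that comparison, and errors after ± are standard errors of the log2 fold change reconstructed from the deposited test statistic. A value written with ± is a log2 fold change. The tables were normalized separately, so calls of a genotype difference in level come only from the genotype tables. The genotype difference of the ABA response was tested from both ABA tables. Sums, shares and counts by level from the ABA tables stand side by side as descriptions. Depth per library is unknown. NUP1 transcript was 12.8 FPKM in untreated Col-0 and 9.23 in untreated nup1-1, which was not called (q = 0.243 in the authors' deposited table), and it was 13.8 and 7.47 on ABA, where it fell (q = 0.000272 in the authors' deposited table). Of the green tissue markers, RBCS1A was listed at 0 in Col-0 where the tables mark it as not quantified, so it was left out of the sums. The other 4 (LHCB1.1, LHCB2.1, RCA and PSBO1) summed to 19289 and 8787 FPKM without and with ABA in the Col-0 table, and to 11764 and 2134 FPKM in that of nup1-1. Seed storage markers (4 albumins, 3 cruciferins and 2 oleosins) summed to 27.8 and 3312 FPKM in Col-0 and to 10.7 and 4502 FPKM in nup1-1 with none at 0 in any group. Of these 9, 7 rose on ABA in Col-0 and 5 in nup1-1, and their part in the LEA results was not tested. Of the green markers, all 4 tested fell on ABA in Col-0 and all 5 in nup1-1. Root markers (EXPA7, COBL9, SCR, WOX5 and PHO1) summed to 60.2 and 59.8 FPKM in Col-0 and to 68.0 and 103 FPKM in nup1-1. In whole seedlings, more cells of one type and more RNA per cell cannot be told apart.

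ABA raised most LEA transcripts in both genotypes. In Col-0, 29 of 45 tested members rose, against 7.83% of all genes tested, and 1 fell, against 7.79%. In nup1-1, 31 of 44 tested members rose, against 21.2% of all genes, and 1 fell, against 25.3%. The median log2 fold change of the tested members was 7.19 in Col-0 and 9.01 in nup1-1, and over all genes it was -0.02 and 0.00. With 1 FPKM added to every value, which damps genes near 0, the members' medians were 5.89 and 7.12. The calls were shared by 28 members. AT5G44310 was called only in Col-0, and LEA27, AT2G18340 and AT5G53270 only in nup1-1. LEA3 was the single member that fell, and it fell in both.

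**Figure D1:**
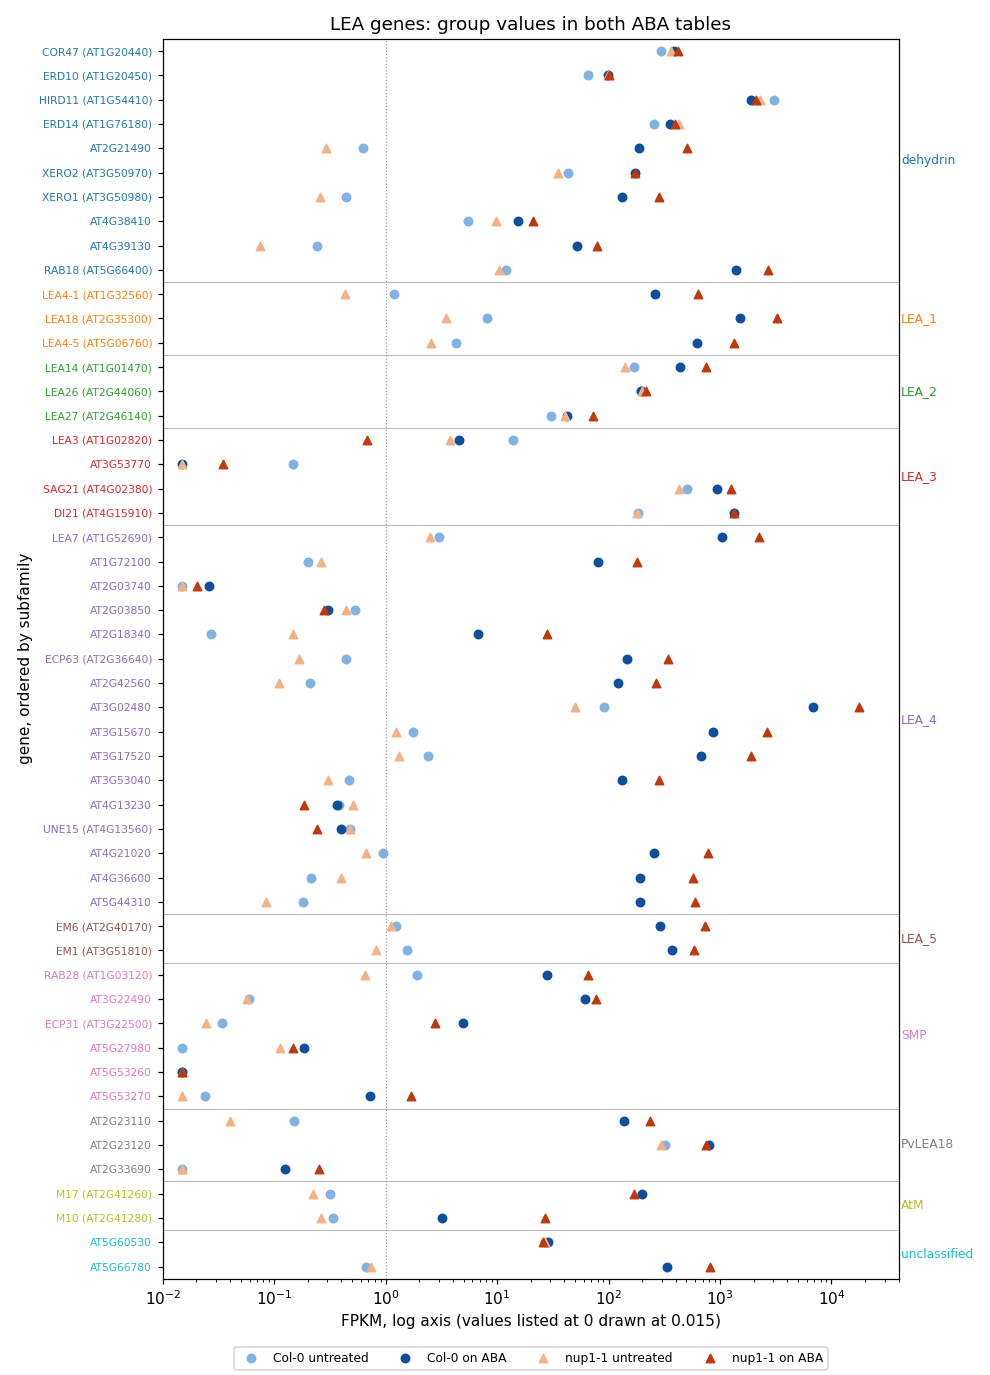
FPKM (log axis) of each of the 51 LEA genes, ordered and coloured by subfamily, with 1 authors' value per group: circles for Col-0, triangles for nup1-1, pale for untreated and dark for ABA, from the 2 ABA tables. Most LEA_1, LEA_4 and LEA_5 genes move from near or under the dotted line at 1 FPKM to over 100 FPKM on ABA, while HIRD11, COR47 and LEA26 stay at high levels throughout.

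LEA transcripts made up a larger part of all transcript signal on ABA. Members' values summed to 0.486% of all FPKM in untreated Col-0 and to 2.51% on ABA, and to 0.460% and 4.87% in nup1-1. These are values of single groups with no test. The totals of the genotypes are also unlike, since genes marked as not quantified count as 0. RBCS1A was listed at 0 in both Col-0 groups, and at 17555 and 6482 FPKM in nup1-1 without and with ABA. Without ABA most of the sum came from HIRD11 (57.6% in Col-0 and 49.4% in nup1-1). On ABA the largest contribution came from AT3G02480 (29.8% and 37.7%). Members at 100 FPKM or more numbered 8 in each untreated group and 30 and 32 on ABA in Col-0 and nup1-1. The LEA_4 subfamily went from 0.00927% to 1.15% of all FPKM in Col-0 and from 0.00585% to 2.87% in nup1-1. The dehydrins went from 0.342% to 0.517% and from 0.322% to 0.711%.

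**Figure D2:**
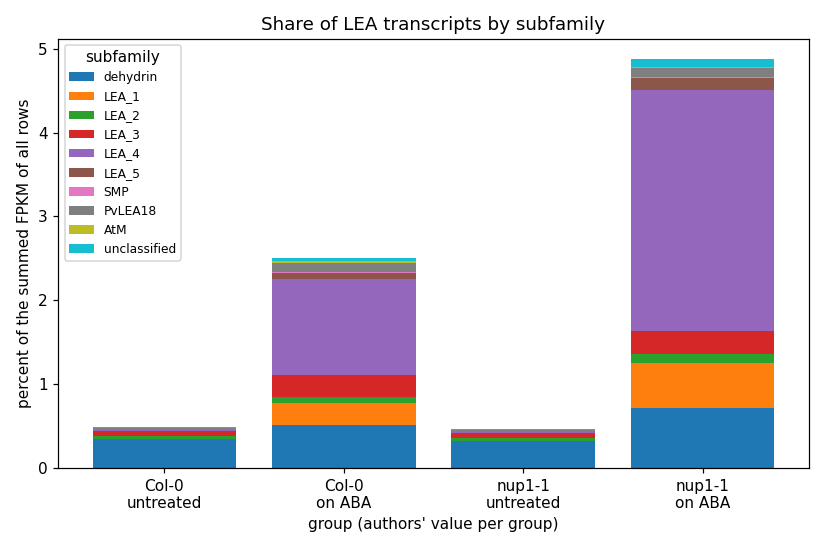
Percent of the summed FPKM of all 33201 rows that came from LEA genes in each group, stacked by subfamily, from the 2 ABA tables. Dehydrins fill most of both untreated bars (0.486% and 0.460% in all), and LEA_4 genes fill the largest part of both ABA bars (2.51% and 4.87% in all).

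Few members were called for genotype without ABA, and most of those tested were called on ABA. In untreated seedlings 30 members could be tested, since many were too low. None rose in nup1-1 by the deposited test, against 2.68% of all genes, and at an unadjusted p under 0.05 there was 1, ERD14. LEA18, LEA3 and AT3G02480 fell, 3 of 30 against 3.92% of all genes, and 11 were lower at an unadjusted p under 0.05. The median was -0.48, with 25 of 30 values negative, against -0.02 over all genes. On ABA, 28 of 44 tested members were higher in nup1-1 than in Col-0, against 15.4% of all genes, and 4 were lower, against 23.3%. The median was 0.81, with 31 values positive and 13 negative, against -0.01 over all genes. Of the 28 higher members 15 differed at least 2-fold, and of the 4 lower members 2 did. The lower members were LEA3, ECP31, M17 and AT5G60530. In the same table the 9 seed storage markers summed to 4471 FPKM in nup1-1 against 3805 in Col-0, with 2 higher and 4 lower in nup1-1. The 4 green markers were all lower there, with 2119 FPKM in nup1-1 against 10128 in Col-0 and a median of -2.04. Of the 5 root markers, 3 were higher and 1 was lower, with 103 FPKM in nup1-1 against 68.8 in Col-0. The part of these markers in the LEA genotype differences was not tested. Of the 29 members tested in both genotype tables, 16 had a negative value without ABA and a positive value on ABA. This count by sign was not set beside that of all genes, so it does not show a pattern particular to LEA genes. The reference genes had medians of -0.18 and 0.12 in these comparisons, and where recentring on them changed a member's call it is given beside that member.

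**Figure D3:**
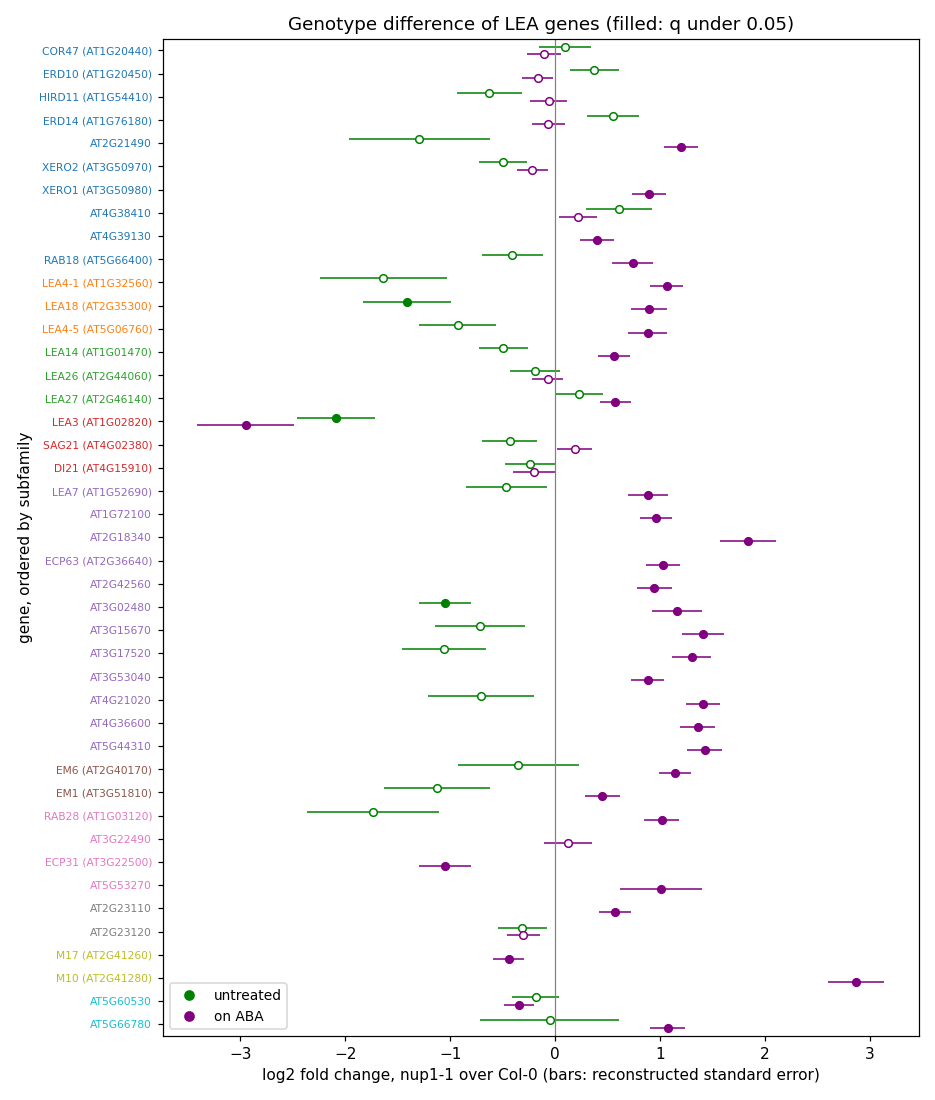
Log2 fold change of nup1-1 over Col-0 for the LEA genes that reached 1 FPKM and were tested, without ABA (green) and on ABA (purple). Bars are reconstructed standard errors and filled points have q under 0.05; the LEA_1, LEA_4 and LEA_5 points lie left of 0 without ABA and right of 0 on ABA, while LEA3 lies left in both.

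Dehydrins, which carry the lysine-rich K-segment and bind membranes or metal ions, split into abundant and seed-type genes. Of the 10, 5 rose on ABA in each genotype and none fell, and the unadjusted count of falls was 1 in Col-0 (HIRD11). HIRD11 (AT1G54410), a histidine-rich metal-binding dehydrin, led all LEA transcripts without ABA, with 3054 FPKM in the Col-0 table and 2277 FPKM in that of nup1-1. On ABA it stood at 1907 and 2116 FPKM, and neither response was called (-0.68 ± 0.26 and -0.11 ± 0.22). The acidic cold and drought dehydrins COR47 (AT1G20440), ERD10 (AT1G20450) and ERD14 (AT1G76180) stood at 294, 65.6 and 253 FPKM in untreated Col-0 and at 389, 97.8 and 358 FPKM on ABA, with no call. In nup1-1 they stood at 362, 98.0 and 427 FPKM without ABA and at 419, 101 and 397 FPKM on ABA, again with no call. Recentring on all genes brought the ERD10 response in Col-0 under the threshold (0.60, q = 0.0429), and recentring on the reference genes made ERD14 higher in untreated nup1-1 (0.73, q = 0.0468).

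RAB18 (AT5G66400), a widely used ABA-responsive dehydrin, went from 11.9 to 1394 FPKM in Col-0 (117-fold, log2 6.87 ± 0.25) and from 10.4 to 2688 FPKM in nup1-1 (259-fold, log2 8.02 ± 0.25). In the table of both genotypes on ABA, Col-0 had 1602 FPKM and nup1-1 2669 FPKM, a higher value in nup1-1 by 0.74 ± 0.19. XERO2 (AT3G50970), the cold-induced dehydrin LTI30, rose less, from 43.2 to 172 FPKM in Col-0 and from 35.4 to 172 FPKM in nup1-1, and its genotype difference on ABA was not called (-0.22 ± 0.15). XERO1 (AT3G50980), its neighbour, went from 0.436 to 132 FPKM and from 0.258 to 283 FPKM, and it was higher in nup1-1 on ABA (152 and 281 FPKM, 0.89 ± 0.16). AT2G21490 went from 0.628 to 189 FPKM and from 0.294 to 500 FPKM, and it too was higher in nup1-1 on ABA (1.20 ± 0.16). AT4G38410 rose 2.81-fold and 2.16-fold. AT4G39130 was 0.243 and 51.6 FPKM in Col-0 and 0.0741 and 78.7 FPKM in nup1-1, differences that the deposited test did not call (q = 0.183 and 0.292 in the authors' deposited table), and its higher level in nup1-1 on ABA (0.40 ± 0.16) was lost on recentring to the reference genes.

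The 3 LEA_1 genes, whose products accumulate in dry seeds and under water deficit, had values of the same sign in every comparison. All rose in both genotypes, and all were higher in nup1-1 on ABA. LEA18 (AT2G35300) went from 8.07 to 1497 FPKM in Col-0 (7.54 ± 0.29) and from 3.49 to 3220 FPKM in nup1-1 (9.85 ± 0.33). Without ABA it was lower in nup1-1, at 3.04 against 8.09 FPKM (-1.41 ± 0.42), and on ABA it was higher, at 3198 against 1720 FPKM (0.90 ± 0.17). LEA4-5 (AT5G06760) went from 4.27 to 623 FPKM and from 2.57 to 1324 FPKM. LEA4-1 (AT1G32560) went from 1.18 to 263 FPKM and from 0.434 to 633 FPKM. Their untreated genotype differences were -0.93 ± 0.37 and -1.64 ± 0.61 and were not called.

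The LEA_2 genes, which unlike the other subfamilies encode proteins with a stable fold, were all expressed without ABA. Of the 3, 1 rose on ABA in Col-0 and 2 in nup1-1, and 2 were higher in nup1-1 on ABA. LEA14 (AT1G01470) rose from 170 to 436 FPKM in Col-0 (1.36 ± 0.23) and from 139 to 746 FPKM in nup1-1 (2.42 ± 0.17), and it was higher in nup1-1 on ABA (0.56 ± 0.15). LEA27 (AT2G46140) rose in nup1-1 from 40.6 to 72.1 FPKM (0.83 ± 0.16). In Col-0 it stood at 30.1 and 41.9 FPKM without a call (0.48 ± 0.22), and it was higher in nup1-1 on ABA (0.57 ± 0.15). LEA26 (AT2G44060) stood at 197 and 196 FPKM in Col-0 and at 198 and 217 FPKM in nup1-1, with no call in any table.

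The LEA_3 genes gave the only fall. LEA3 (AT1G02820) went from 14.0 to 4.52 FPKM in Col-0, a 3.09-fold fall (-1.63 ± 0.30), and from 3.80 to 0.678 FPKM in nup1-1, a 5.60-fold fall (-2.49 ± 0.54). It was also lower in nup1-1 on both media, at 3.29 against 14.0 FPKM untreated (-2.09 ± 0.38) and at 0.674 against 5.20 FPKM on ABA (-2.95 ± 0.46). These 4 calls had the same direction under each recentring. Its relatives rose: SAG21 (AT4G02380), a senescence-associated gene with a mitochondrial product, from 509 to 942 FPKM in Col-0 (0.89 ± 0.25) and from 433 to 1243 FPKM in nup1-1 (1.52 ± 0.18), and the drought-induced DI21 (AT4G15910) from 184 to 1338 FPKM and from 179 to 1340 FPKM. DI21 thus rose 7.29-fold and 7.48-fold, and neither DI21 nor SAG21 was called for genotype. SAG21 overlaps another annotated gene on its own strand, so part of its signal may be shared.

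LEA_4, the largest subfamily, whose proteins carry repeated short motifs and can fold into helices on drying, held the steepest responses. In Col-0 11 of 14 tested members rose and in nup1-1 11 of 13, with none falling at an unadjusted p under 0.05 in either. On ABA 12 of 13 were higher in nup1-1. AT3G02480, the most abundant LEA transcript on ABA, went from 90.0 to 6783 FPKM in Col-0 (75.3-fold, 6.24 ± 0.26) and from 50.0 to 17516 FPKM in nup1-1 (350-fold, 8.45 ± 0.27). It was lower in nup1-1 without ABA, at 43.6 against 90.3 FPKM (-1.05 ± 0.24), and higher on ABA, at 17395 against 7791 FPKM (1.16 ± 0.24). AT3G15670 went from 1.77 to 862 FPKM and from 1.24 to 2644 FPKM. LEA7 (AT1G52690) went from 2.98 to 1044 FPKM and from 2.48 to 2228 FPKM. AT3G17520 went from 2.39 to 672 FPKM and from 1.31 to 1914 FPKM.

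The other LEA_4 responders started under 1 FPKM. AT4G36600 went from 0.213 to 193 FPKM in Col-0 (9.82 ± 0.47) and from 0.398 to 571 FPKM in nup1-1 (10.49 ± 0.41). AT2G42560 went from 0.208 to 121 FPKM (9.18 ± 0.39) and from 0.111 to 269 FPKM (11.24 ± 0.52). ECP63 (AT2G36640), an embryonic cell protein gene, went from 0.439 to 146 FPKM and from 0.167 to 344 FPKM. AT4G21020, AT3G53040 and AT1G72100 reached 257, 133 and 80.4 FPKM in Col-0 and 787, 283 and 181 FPKM in nup1-1 on ABA. AT5G44310 went from 0.182 to 193 FPKM in Col-0 and stood at 0.0836 and 598 FPKM in nup1-1, where the deposited test made no call (q = 0.206 in the authors' deposited table). AT2G18340 stood at 0.0269 and 6.75 FPKM in Col-0 without a call and rose from 0.146 to 27.9 FPKM in nup1-1 (q = 0.0494 in the authors' deposited table). On ABA the genotype difference of AT2G18340 was 1.84 ± 0.26, the steepest of the subfamily. For both genes the deposited p of the ABA response in nup1-1, and for AT2G18340 also in Col-0, was larger than the test statistic implies. For AT2G42560, ECP63 and AT1G72100, which also started under 1 FPKM, the deposited p was at its smallest value, 5e-05. It could therefore not be compared with the statistic. With p taken from the statistic instead, AT4G39130, AT3G22490, ECP31 and AT2G23110 were called higher on ABA in both genotypes, AT2G18340 also in Col-0 and AT5G44310 also in nup1-1.

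The LEA_5 genes EM6 (AT2G40170) and EM1 (AT3G51810), homologues of the wheat Em protein and targets of ABI3 and ABI5, were nearly silent without ABA. EM6 went from 1.24 to 290 FPKM in Col-0 (7.87 ± 0.39) and from 1.12 to 740 FPKM in nup1-1 (9.37 ± 0.41). EM1 went from 1.54 to 368 FPKM (7.90 ± 0.35) and from 0.812 to 580 FPKM (9.48 ± 0.38). On ABA EM6 had 735 FPKM in nup1-1 against 333 FPKM in Col-0 (1.14 ± 0.16), and EM1 had 576 against 422 FPKM (0.45 ± 0.17). The EM1 difference lost its call on recentring to the reference genes. EM6 was thus the lower transcript of the pair in Col-0 and the higher one in nup1-1, an order that was not tested. Over the 8 group values of the 4 tables, the members most like EM6 in log2(FPKM + 1) were AT2G42560, AT3G15670 and AT3G53040, with Pearson correlations of 0.9999, 0.9999 and 0.9998. These are LEA_4 genes, but the dehydrin XERO1 and the unclassified AT5G66780 also reached 0.9998, so this likeness is not particular to 1 subfamily. The least alike were LEA3 (-0.67) and HIRD11 (-0.57). The tables share libraries in pairs, so these 8 values are not independent, and the same group can differ by a median of 0.20 (log2) between tables.

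The SMP genes, named for seed maturation protein, reached lower levels. RAB28 (AT1G03120) rose from 1.89 to 28.0 FPKM in Col-0 (3.89 ± 0.36) and from 0.655 to 65.5 FPKM in nup1-1 (6.64 ± 0.52), and it was higher in nup1-1 on ABA (1.02 ± 0.17). AT3G22490 stood at 0.0590 and 61.7 FPKM in Col-0 and at 0.0572 and 77.5 FPKM in nup1-1, with no call (q = 0.368 and 0.252 in the authors' deposited table). ECP31 (AT3G22500), 781 bases away, stood at 0.0340 and 4.95 FPKM and at 0.0245 and 2.76 FPKM, also with no ABA call. On ABA ECP31 was lower in nup1-1, at 2.74 against 5.67 FPKM (-1.05 ± 0.25), while AT3G22490 was 76.9 against 70.7 FPKM (0.12 ± 0.23, not called). The coding sequences of this pair are 83.9% identical, so reads may have been divided between them. AT5G53270 was listed at 0 in untreated nup1-1 and stood at 1.69 FPKM on ABA, which was called. With a group at 0 it has no fold or error, so this call could not be computed on recentring or with p from the statistic. It was 0.0240 and 0.729 FPKM in Col-0. Its higher level in nup1-1 on ABA (1.01 ± 0.39) lost its call on recentring to the reference genes. Its neighbour AT5G53260, 80.3% identical in coding sequence, was listed at 0 in every group.

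Neighbouring members of the small subfamilies differed in level and response. AT2G23110 and AT2G23120, both PvLEA18 genes, lie 475 bases apart. AT2G23120 was already at 321 FPKM in untreated Col-0 and rose to 802 FPKM (1.32 ± 0.24), and in nup1-1 it rose from 297 to 752 FPKM (1.34 ± 0.16). AT2G23110 had 0.152 and 137 FPKM in Col-0 and had 0.0403 and 235 FPKM in nup1-1, without a call (q = 0.415 and 0.338 in the authors' deposited table). On ABA it was higher in nup1-1, at 233 against 157 FPKM (0.57 ± 0.15), and AT2G23120 was 746 against 922 FPKM (-0.30 ± 0.16, not called), which became a call after recentring on the reference genes. AT2G23120 overlaps an antisense gene, and whether reads were assigned by strand is not stated.

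Of the AtM genes, known as late seed maturation transcripts, M17 (AT2G41260) and M10 (AT2G41280) lie 1998 bases apart and both rose on ABA. M17 went from 0.316 to 199 FPKM in Col-0 (9.29 ± 0.47) and from 0.222 to 169 FPKM in nup1-1 (9.58 ± 0.65). M10 went from 0.337 to 3.17 FPKM in Col-0 (q = 0.0189 in the authors' deposited table) and from 0.263 to 26.7 FPKM in nup1-1 (q = 0.0149 in the authors' deposited table). Their genotype differences on ABA ran in opposite directions. M17 was lower in nup1-1, at 168 against 228 FPKM (-0.44 ± 0.15), and M10 was higher, at 26.5 against 3.63 FPKM. The M10 difference of 7.30-fold (2.87 ± 0.27) was the steepest rise of any LEA gene in that comparison. Of the unclassified genes, AT5G66780 went from 0.660 to 333 FPKM and from 0.732 to 809 FPKM and was higher in nup1-1 on ABA (1.07 ± 0.17). AT5G60530 stayed between 26.0 and 28.4 FPKM in the ABA tables without a call, and its lower level in nup1-1 on ABA (-0.35 ± 0.15) was lost on recentring to all genes (q = 0.0550).

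Whether the response to ABA itself differed between genotypes was tested from both ABA tables, which share no library. Of 42 tested members, 18 responded more steeply in nup1-1 (2-sided Wald test, Benjamini-Hochberg over 19487 genes), against 4.65% of all genes. None responded less steeply, against 11.6%, and at an unadjusted p under 0.05 there was 1, ERD14 (-0.61 ± 0.29). The median difference was 1.14 on the log2 scale, with 34 values positive and 8 negative, against 0.00 over all genes. The 18 were all 3 LEA_1 genes, both LEA_5 genes, 8 of 12 LEA_4 genes, the dehydrins RAB18 and AT2G21490, LEA14, RAB28 and M10. M10 had the steepest difference (3.43), followed by RAB28 (2.76 ± 0.63), LEA4-1 (2.71), ECP63 (2.63 ± 0.63) and AT2G21490 (2.50). AT3G02480 differed by 2.22 ± 0.38 and LEA18 by 2.31 ± 0.44. LEA14 (1.06 ± 0.28) and RAB18 (1.15 ± 0.36) were at the lower end. All 18 were also called higher for genotype on ABA, from the same libraries, and all 18 had a negative untreated genotype value, 14 of them tested. Apart from table scaling, the response difference is the genotype value on ABA minus the untreated one, so these signs are not separate evidence. The values on ABA and untreated were 0.90 and -1.41 for LEA18, and 0.88 and -0.47 for LEA7. No LEA_3, PvLEA18 or unclassified gene was called. Among these, AT2G23110 differed by 2.69 (q = 0.613 in the Wald test) and AT5G66780 by 1.13 ± 0.65, so the lack of a call does not show like responses for them. An error could be taken from the deposited p only where that p was above its smallest value, 5e-05. Among the 18 this held for AT2G21490, LEA4-1 and M10, and all of these lost their call. EM6 kept its error and lost its call as its q in the Wald test became 0.0514. The errors of the other 14 could not change, so their calls were not checked this way. EM6 (1.50 ± 0.56, q = 0.0483) also lost its call on recentring. With the difference taken from the genotype tables, EM6 again lost its call (1.49, q = 0.0686 in the Wald test). There ECP63, AT2G42560, AT3G53040 and M10 could not be tested, and the rest of the 18 kept their calls.

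**Figure D4:**
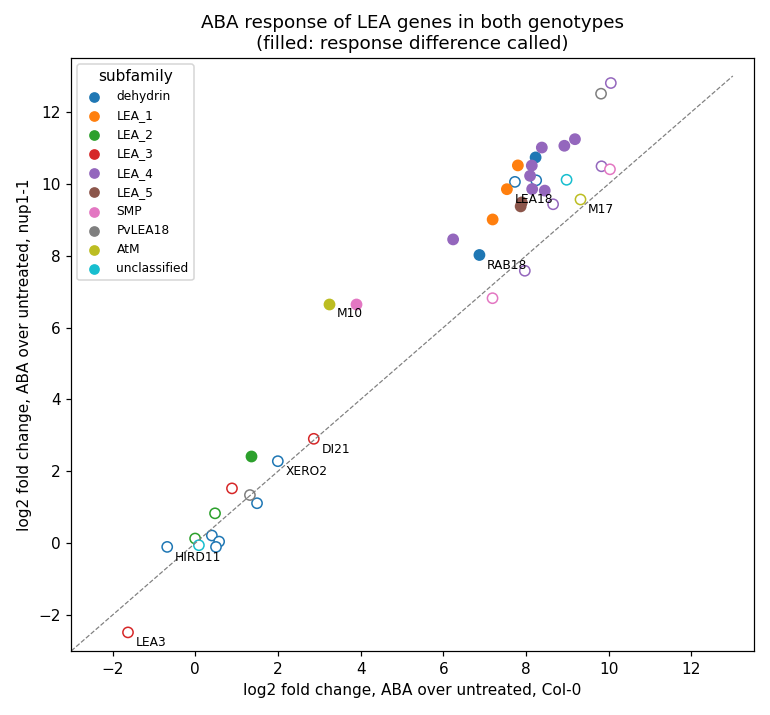
Log2 fold change of ABA over untreated for LEA genes tested in both ABA tables, Col-0 on the horizontal and nup1-1 on the vertical axis, coloured by subfamily. The dashed line marks equal responses; the 18 filled points, called for a steeper response in nup1-1, lie above it, and open points were not called.

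The remaining 8 members stayed under 1 FPKM in every group of every table. They were AT3G53770 of LEA_3, AT2G03740, AT2G03850, AT4G13230 and UNE15 (AT4G13560) of LEA_4, AT5G27980 and AT5G53260 of SMP, and AT2G33690 of PvLEA18. AT2G03850 had the highest value among them at 0.535 FPKM, in untreated Col-0, and AT2G03740 did not pass 0.0302 FPKM. These 2 are 80.2% identical in coding sequence. None of the 8 was called in any table. Among the 51 members 9 overlap another annotated gene, RAB18, LEA7, AT2G18340, UNE15, AT3G22490, AT5G27980, AT2G23120, AT2G33690 and SAG21, and no label or header says whether reads were counted by strand.

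The listed regulators of LEA genes moved in part with them. Of 17 regulators, 16 had a row of their own and 11 were tested for ABA. In Col-0 4 rose: ABI3, the B3 factor of seed maturation, from 0.148 to 12.9 FPKM, ABI5 from 2.15 to 32.8 FPKM, the bZIP factor EEL from 3.62 to 9.19 FPKM, and ABF3 from 32.6 to 51.0 FPKM. In nup1-1 5 rose and 2 fell, among them ABI3 from 0.278 to 42.6 FPKM and ABI5 from 2.72 to 73.4 FPKM. On ABA ABI3 was 42.3 FPKM in nup1-1 against 14.8 in Col-0 (1.52 ± 0.15), ABI5 72.9 against 37.7 (0.95 ± 0.15), ABI4 38.7 against 8.24 (2.23 ± 0.18) and EEL 21.3 against 10.5 (1.01 ± 0.17), while ABF4 was lower. Without ABA none of the 9 tested was called for genotype, and at an unadjusted p under 0.05 there was none either. In the Wald test of the response difference, 1 of the 11 tested regulators was steeper in nup1-1 and 1 was less steep. Over all genes these shares were 4.65% and 11.6%. The regulators' median difference was 0.08, and neither ABI3 nor ABI5 was called. Of 4 cold and dehydration regulators, CBF2 fell on ABA in Col-0 and CBF3 in nup1-1, CBF1 was not called, and DREB2A rose from 9.81 to 23.4 FPKM in Col-0 and from 7.34 to 45.1 FPKM in nup1-1. COR15A and COR15B, cold-regulated chloroplast LEA_4 proteins outside the list, went another way. COR15A rose in Col-0 from 22.2 to 181 FPKM and fell in nup1-1 from 174 to 63.5 FPKM, and COR15B rose from 52.1 to 81.7 FPKM and fell from 213 to 17.2 FPKM.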

How the data were processed

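RNA from 12 samples of Arabidopsis seedlings, 4 groups of 3, was sequenced. Reads were handled with Trimmomatic, FastQC and TopHat on TAIR10, per the submitters' processing notes, which give no versions. Per the file headers, the authors deposited 4 comparison tables of 33201 rows, each with 1 value per group beside a p-value, a q-value, the statistic of the test and a log2 ratio. The header gives no unit; the group values were read as FPKM, as their fall with gene length implies. The deposited test statistic is a score, and the deposited q-value decided calls (q under 0.05, genes marked as tested). The deposited log2 column held damaged cells, so log2 fold changes were recomputed from FPKM with no pseudocount.

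Standard errors were the log2 fold change over the statistic times a factor per table (1.736 to 1.742) that matches the deposited p. Where the p-based error was over 1.5 times larger, as in 7 and 10 members of the Col-0 and nup1-1 ABA tables, q or FPKM alone is given instead. LEA4-1, AT2G21490 and XERO1 are among these members in nup1-1, and only FPKM is given for their ABA responses. A deposited p at its smallest value, 5e-05, gives no such error, so members there were not checked. The response difference was tested by a 2-sided Wald test, with q by Benjamini-Hochberg across the 19487 genes that both ABA tables mark as tested and that were at 1 FPKM or more in a group. The calculation was run on simulated data in which the errors were known and at most 1. This did not check the reconstructed errors of these data or genes with larger errors. Groups differ in scale between tables: the Col-0 ABA group was 0.20 higher and the untreated nup1-1 group lower by a median of -0.20 (log2) in the genotype tables than in the ABA tables. Genotype differences in level were therefore called only within the genotype tables. Sums, shares and counts by level from both ABA tables stand side by side without a test, and the likeness to EM6 pools all 4.

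Promoter windows of 250 bases were read from the RefSeq TAIR10.1 genome, whose chromosome lengths matched the coordinates of the files, at the transcript start nearest the authors' gene model; 24 of 51 members had the same start in both. Protein features were not analysed here. Python 3.11.15, numpy 2.4.6, pandas 2.3.3, scipy 1.17.1, biopython 1.88 and matplotlib 3.10.9 were used. The members, gene lists and tests were chosen with earlier results of these data known. Full values are given per subfamily for the member highest on ABA and any called against its subfamily, per comparison for the 5 called members with the highest and lowest fold change, for the 10 largest response differences called, and for others as space allowed. Alternatives were a stricter q of 0.01, a minimum log2 change of 1, a minimum of 1 FPKM, recentring on all genes or on 9 reference genes, pseudocounts of 0.1 and 1 FPKM, other error estimates and other promoter settings. Total counts were not used here, so depth and its precision are unknown.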

Additional observations from a re-analysis of the deposited data

Results flagged for a closer look

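The ABA response of 18 LEA genes differed between nup1-1 and Col-0 by the Wald test of the difference itself, and each was steeper in nup1-1. The log2 difference was 2.31 for LEA18, 2.71 for LEA4-1 and 1.82 for LEA4-5 in LEA_1, and 1.50 for EM6 and 1.59 for EM1 in LEA_5. In LEA_4 it was 1.36 for LEA7, 2.63 for ECP63, 2.06 for AT2G42560, 2.22 for AT3G02480, 2.13 for AT3G15670, 2.37 for AT3G17520, 1.71 for AT3G53040 and 2.12 for AT4G21020. Among dehydrins it was 2.50 for AT2G21490 and 1.15 for RAB18. It was 1.06 for LEA14, 2.76 for RAB28 and 3.43 for M10. M10 combined the largest of these differences with one of the lowest levels, since it stood at 3.17 FPKM in Col-0 on ABA. The calls of M10, LEA4-1, AT2G21490 and EM6 were lost when errors were taken from the deposited p where possible. EM6 also lost its call on recentring and when the difference was taken from the genotype tables.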

How the results depend on the processing

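No paired analysis was possible because each deposited table holds a single value per group, and for the same reason no replicate could be left out in turn; both were not run. A pseudocount of 1 FPKM moved the median log2 fold change of tested members on ABA to 5.89 in Col-0 and 7.12 in nup1-1, by construction, since it damps low values. It also moved 62 of 162 single fold changes by more than 1 standard error, and a pseudocount of 0.1 FPKM moved 13. Asking for a log2 change of at least 1 left 15 members higher and 2 lower in nup1-1 on ABA. Recentring on the reference genes gave 1 member higher in untreated nup1-1 and 1 with a less steep response in nup1-1, ERD14 in both. All other counts of called members were within 1.5 times the reported ones under the settings run. No called fold change turned sign on recentring, but values near 0 without a call did: the response differences of LEA26, DI21 and AT2G23120 went from 0.13, 0.04 and 0.02 to -0.03, -0.13 and -0.15 with the reference genes. Searching the gene strand alone lowered the share of LEA promoters with an ABRE core to 51.0% and of all promoters to 16.0%. The alternatives with p or promoter starts taken another way (p from the reconstructed error, outermost gene start) were chosen after seeing the data. Low values limit the test: for 7 members in the Col-0 and 10 in the nup1-1 ABA table the deposited p was larger than the statistic implies. Members at the smallest deposited p, 5e-05, could not be compared in this way. Depth per library is unknown.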
